A study of Rattus norvegicus with 6 samples.

Results

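Potassium channel genes were examined in the medial prefrontal cortex (mPFC) of rats 90 min after a single dose of lysergic acid diethylamide (LSD), a hallucinogenic agonist of serotonin receptors. The members were all genes whose single symbol in the platform annotation begins with Kcn, the root of most potassium channel genes, or with Hcn, the root of the hyperpolarization-activated cation channel genes. This gave 54 of the 4736 genes that the arrays measured with a single symbol, read by 82 probe sets. All 54 carried a Kcn symbol. No probe set was annotated to an Hcn gene, so the channels of the Ih current were not analysed here. The brightest probe set stood for each gene.

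Male Sprague-Dawley rats received either 1.0 mg/kg LSD or saline intraperitoneally, and 3 arrays per group were deposited. No genetic modification was named, and no age was given. The labels have the tissue of all 4 rats in a group combined ahead of extraction, while the study's text speaks of 3 separate pools per group. The p-values therefore measure only how far arrays of a group spread, and that spread may be technical. The second line of each sample description names the opposite treatment from its title and treatment label. Titles and treatment labels were followed here, and the opposite reading would turn every sign. Values are log2 intensities from robust multi-array average (RMA) processing, in which 1 unit is a doubling of signal. Saline 1 stood apart, with 78 probe sets lying over 1 log2 unit away from the average of the remaining arrays, against 2 to 21 for any other array.

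Potassium channels let potassium leave or enter a cell along its gradient, which sets the resting potential and shapes how a neuron fires. Voltage-gated Kv channels open on depolarization and end the action potential, calcium- and sodium-activated channels open after activity, inward rectifiers hold the potential near rest, and tandem-pore (K2P) channels carry background leak. Several of them lie downstream of serotonin receptors: receptors of the 5-HT1A type open Kir3 channels through G protein subunits, and receptors that couple to phospholipase C, among them 5-HT2A, can close Kv7 channels and so raise excitability. Which subunits a neuron transcribes contributes to the currents available to it, while the receptor effects named here act on channels already in the membrane. The arrays read RNA and not channel protein.

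None of the 54 genes passed an adjusted p of 0.05 in limma, the linear model fitted over all genes, where 0.0211% of all genes did. The lowest adjusted p of a member was 0.971. An unadjusted limma p below 0.05 was found for 1 member, Kcnt1, against 3.63% of all genes, and an exact rank sum test, which cannot give a p below 0.1 here, called 0. Of the members 26 had a higher and 28 a lower mean after LSD, with a median log2 difference of -0.0091 against 0.0056 over all genes. The median size of the difference, regardless of sign, was 0.089 log2 units in the members and 0.077 in all genes. LSD values lay above all saline values for 1 member, Kcna1, and 6.97% of all genes separated in this direction. LSD values lay below all saline values for 0 members, against 3.34% of all genes.

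The intervals bounded the difference only as far as the spread between arrays of a group goes. If that spread is technical, they do not cover the variation between rats. For 48 of the 54 genes, 88.9% against 94.0% of all genes, the 95% interval of the fit excluded a 1.5-fold change in either direction on the RMA scale, which compresses differences of dim probe sets. The median distance from the estimate to the end of its interval was 0.25 log2 units. The 6 genes whose intervals reached further were Kcnt1, Kcnh1, Kcnv1, Kcne1, Kcnj6 and Kcnj8. The median SD within a group was 0.146 log2 units in the members and 0.124 in all genes. Mean levels of the members ran from 2.80 to 9.45 log2 units, and 30 of them lay above the median of all probe sets, which was 5.43. No detection calls were used, so a low value does not show whether a transcript was present.

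**Figure D1:**
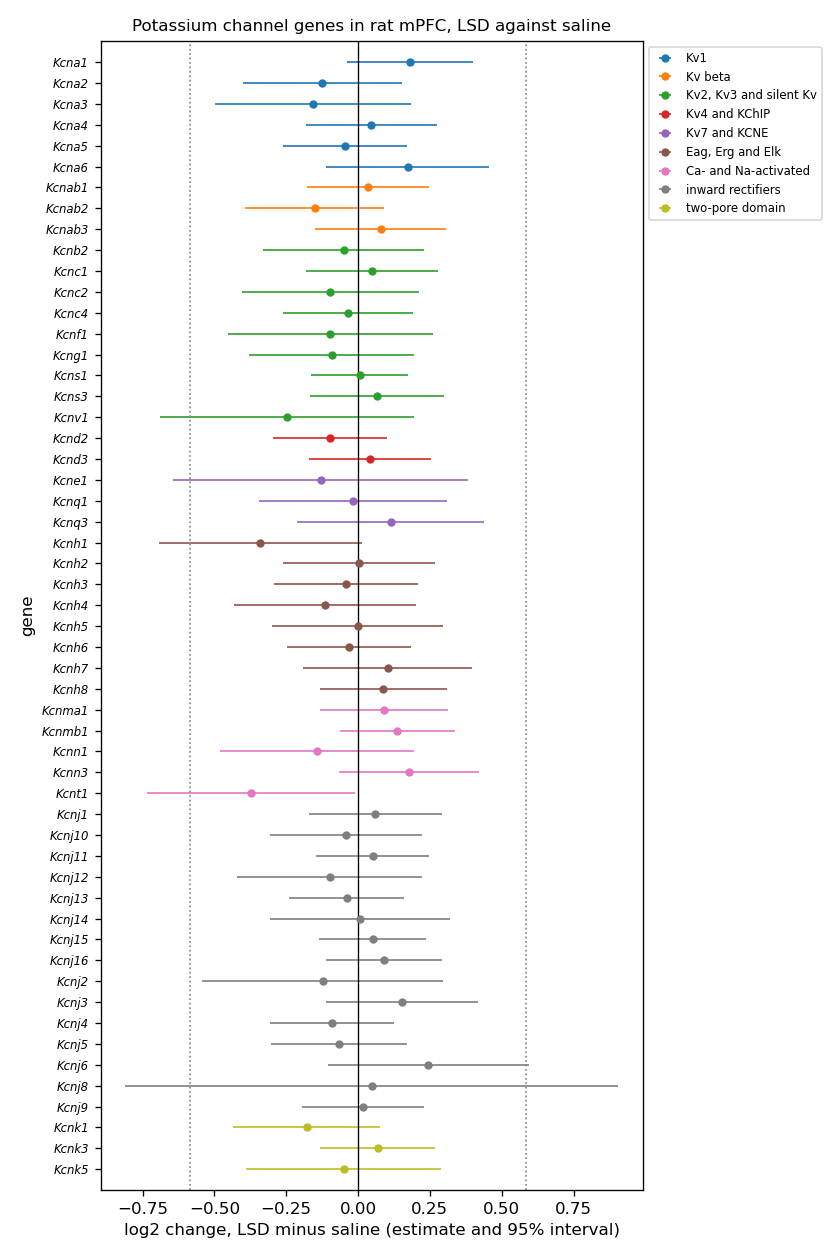
Difference between LSD and saline means in log2 units (horizontal axis) for the 54 potassium channel genes (vertical axis), coloured by family. Each point is an estimate of the limma fit over 3 arrays per group, and its bar is the 95% interval. Dotted lines mark a 1.5-fold change, and the intervals of 48 genes lie between them.

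Kv1 channels, the Shaker family, sit in axons and control the threshold and spread of the action potential. Of 6 measured, 3 had higher and 3 lower means after LSD. Kcna1, which encodes the low-threshold subunit Kv1.1, was at 6.0, 5.85 and 5.96 log2 units on saline arrays 1 to 3 and at 6.27, 6.02 and 6.06 on the LSD arrays. The LSD arrays were above all saline arrays, narrowly so between LSD 2 and Saline 1, and the difference was 0.18 ± 0.096 log2 units (SE, adjusted p = 0.971). Without LSD 1 the difference was 0.10, and without LSD 2 it was 0.23. The probe sets that stood for Kcna1, Kcna2, Kcna3, Kcna4 and Kcna6 have names ending in _s_at, a kind that can match several transcripts. The second probe set of Kcna1, not of this kind, was at 4.26, 4.10 and 4.22 in saline and 4.08, 4.41 and 4.45 in LSD arrays. There the groups overlapped. Kcna2, the frequent partner of Kv1.1 in axons, differed by -0.12 ± 0.12 and its highest array was Saline 1 at 5.26, with the others between 4.78 and 4.93. Kcna6 differed by 0.17 ± 0.12, with Saline 1 lowest at 4.11, and its second probe set by -0.07.

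Kcna4 encodes Kv1.4, an inactivating A-type subunit of axons, and its probe sets differed most clearly within the family. The brightest was at 6.10, 6.11 and 6.23 in saline and 6.02, 6.29 and 6.28 in LSD arrays, a difference of 0.05 ± 0.10 log2 units (SE). The other, a dim probe set, was at 2.99, 2.99 and 3.06 in saline and 2.67, 2.89 and 2.79 in LSD arrays. All its LSD values lay below all its saline values, with a difference of -0.23, for which limma gave an adjusted p of 0.981 at probe set level. The 2 readings of this gene therefore had opposite signs. It was picked out after its values were seen.

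Beta subunits of Kv channels, cytoplasmic proteins that speed inactivation and help Kv1 channels reach the membrane, were all 3 measured. Kcnab2 differed by -0.15 ± 0.11 log2 units (SE), with 9.13, 9.05 and 9.26 in saline and 8.84, 9.16 and 8.99 in LSD arrays. LSD 1 was lowest and LSD 2 stood above 2 of the saline arrays. Kcnab3 differed by 0.08 ± 0.10 and Kcnab1 by 0.03.

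Kv2 and Kv3 channels carry the delayed rectifier currents of cell bodies and of fast-spiking interneurons, and the silent subunits of the Kcnf, Kcng, Kcns and Kcnv genes modify Kv2 channels without forming channels of their own. Of 9 measured, 3 had higher and 6 lower means. The difference in Kcnv1 was -0.25 ± 0.19 log2 units (SE, adjusted p = 0.971). Its values were wide apart in saline, with arrays spread over 5.77, 6.18 and 6.60 and LSD arrays at 6.08, 5.76 and 5.96. Its saline arrays covered more than its LSD arrays, with Saline 1 at the bottom beside LSD 2. Kcng1 differed by -0.09 ± 0.13, with Saline 1 highest at 5.94. Kcnc1, which encodes the Kv3.1 subunit of fast-spiking cells, differed by 0.05 ± 0.10, and the 4 probe sets of Kcnc2 differed by between -0.10 and 0.10. Kcns1 had the narrowest spread of all members, from 5.32 to 5.37 over the 6 arrays.

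Kv4 channels carry the dendritic A-type current, which dampens back-propagating spikes. Kcnd2 differed by -0.10 ± 0.086 log2 units (SE) and Kcnd3 by 0.04 ± 0.092. The further probe sets of Kcnd3 differed by 0.19 and -0.14, which at 0.33 was the widest disagreement between probe sets of any member gene. The auxiliary KChIP genes were not analysed here. Kv7 channels carry the M-current, a slow brake on repeated firing. Kcnq3, a subunit of the neuronal M-channel, was at 5.79, 6.17 and 6.20 in saline and 6.02, 6.09 and 6.40 in LSD arrays, a difference of 0.11 ± 0.14. Saline 1 was its lowest and LSD 3 its highest array. Kcne1, an auxiliary subunit best known from cardiac Kv7.1 channels, differed by -0.13 ± 0.22, and Saline 1 at 6.22 was above the other 5 arrays, which ran from 5.21 to 5.70. Without Saline 1 its difference was 0.14.

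The ether-à-go-go group comprises the Eag, Erg and Elk channels, and all 8 of its genes were measured. Kcnh1, which encodes the Eag1 channel, was at 6.29, 6.21 and 6.69 in saline and 6.30, 5.98 and 5.89 in LSD arrays. Saline 3 was its highest array, and LSD 1 lay among the saline values. The difference was -0.34 ± 0.15 log2 units (SE, adjusted p = 0.971), and its interval ran from -0.69 to 0.01. Without Saline 3 it was -0.19, and without LSD 1 it was -0.46. Kcnh8, an Elk channel, differed by 0.09 ± 0.096. Kcnh2, the Erg1 channel, had a difference of 0.0023 ± 0.12 in its brightest probe set. In its other probe set the groups did not overlap, with 6.69, 6.78 and 6.78 in saline and 6.84, 6.82 and 6.81 in LSD arrays, although the difference was only 0.07. Kcnh3, Kcnh4, Kcnh5 and Kcnh6 had lower means, between -0.12 and -0.0012, and Kcnh7 a higher mean at 0.10.

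Among channels that open after activity, Kcnt1 was the member with the lowest p. It encodes the sodium-activated channel Slack, and was at 5.85, 5.51 and 5.20 log2 units in saline and 5.29, 5.08 and 5.07 in LSD arrays. Saline 1 was highest, and Saline 3 lay below LSD 1, so the groups overlapped. The difference was -0.37 ± 0.16 (SE), with an unadjusted limma p of 0.0447 and an adjusted p of 0.971. Without Saline 1 it was -0.21, with an unadjusted limma p of 0.131. Without Saline 3 it was -0.54, with an unadjusted limma p of 0.00508 and an adjusted p of 0.994.

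The calcium-activated members pointed in different directions. Kcnn3, a small-conductance SK channel of the afterhyperpolarization, was at 4.08, 3.76 and 3.84 in saline and 4.01, 4.02 and 4.18 in LSD arrays, a difference of 0.18 ± 0.11 (SE). All saline arrays other than Saline 1 were below all LSD arrays. For Kcnn1, another SK channel, the values were 5.37, 5.95 and 5.75 in saline and 5.58, 5.41 and 5.66 in LSD arrays, a difference of -0.14 ± 0.15 with Saline 1 as the lowest of all. Kcnma1, the pore of the large-conductance BK channel, differed by 0.09 ± 0.097 in its brightest probe set and by -0.08, -0.06 and -0.0040 in the others. Kcnmb1, the BK beta subunit best known from vascular smooth muscle, differed by 0.14 ± 0.087, with 7.30, 7.08 and 7.15 in saline and 7.28, 7.31 and 7.35 in LSD arrays. As in Kcnn3, Saline 1 was the saline array that lay within the LSD range.

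**Figure D2:**
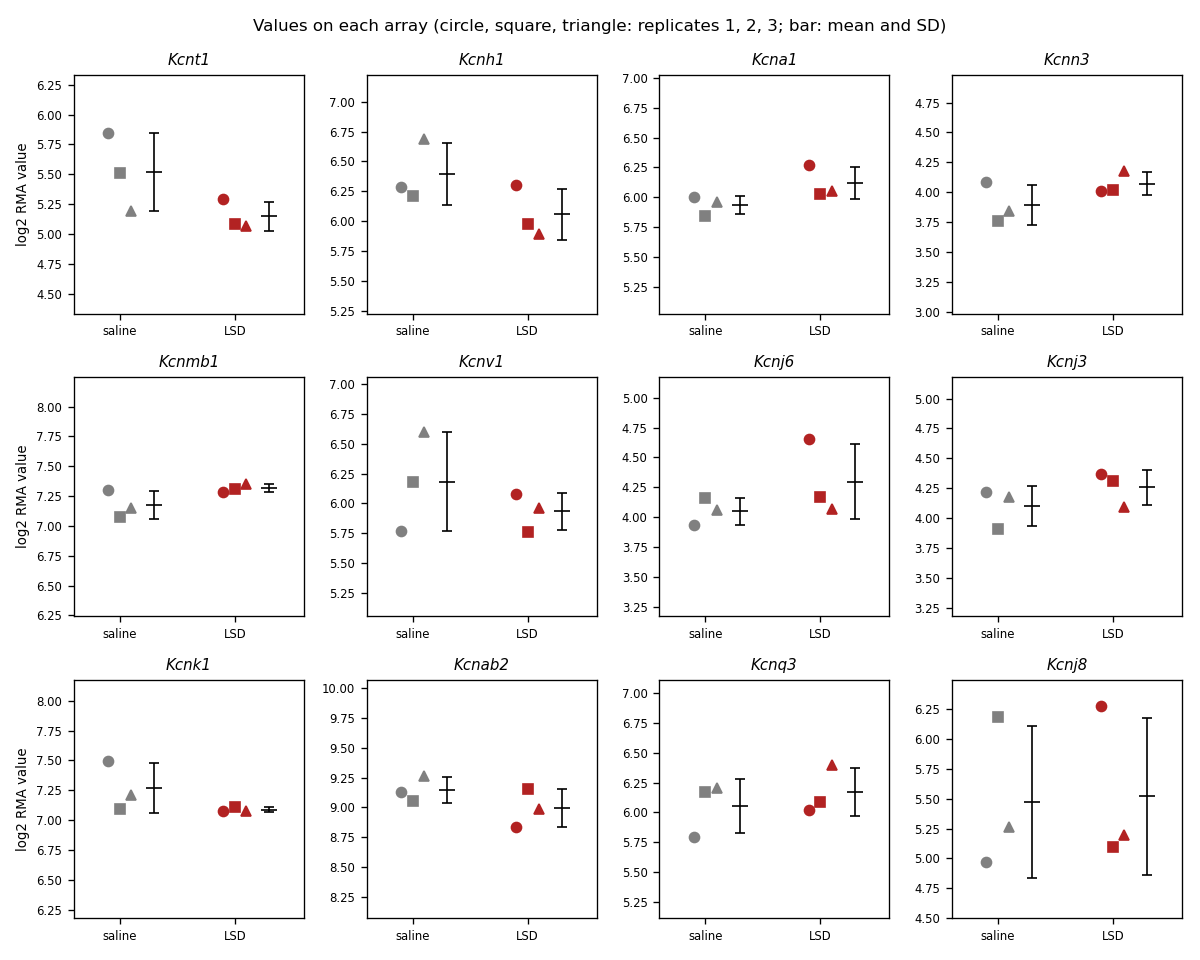
Log2 RMA values (vertical axis, 2 units in each panel) of 12 channel genes for the single arrays, with saline points in grey, LSD points in red, a symbol per replicate, and bars for the mean and SD of 3 arrays. Only Kcna1 has all LSD arrays above all saline arrays, and Kcnj8 has the widest spread within both groups.

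Inward rectifiers were the largest family, with all 15 listed genes measured, 9 of them with a higher and 6 with a lower mean. Kcnj3, Kcnj6 and Kcnj9 encode the Kir3.1, Kir3.2 and Kir3.3 subunits of neuronal G protein-gated channels. Kcnj6 was at 3.93, 4.16 and 4.06 in saline and 4.65, 4.17 and 4.07 in LSD arrays, a difference of 0.25 ± 0.15 log2 units (SE, adjusted p = 0.971). LSD 1 was far above the other 5 arrays, and without it the difference was 0.07. Without LSD 3 the difference was 0.36. Kcnj3 was at 4.22, 3.91 and 4.18 in saline and 4.37, 4.31 and 4.09 in LSD arrays, a difference of 0.15 ± 0.12, while its second probe set differed by -0.0030. Kcnj9 differed by 0.02 ± 0.092. Kcnj5, the Kir3.4 subunit best known from atrial muscle, differed by -0.07.

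Kcnj11, the pore Kir6.2 of ATP-sensitive channels that couple metabolism to excitability, was read by a pair of probe sets designed on 1 sequence entry. The first was at 7.44, 7.36 and 7.48 in saline and 7.59, 7.58 and 7.57 in LSD arrays. These groups did not overlap, with a difference of 0.15 ± 0.079 log2 units (SE), for which limma gave an adjusted p of 0.981 at probe set level. In the brighter one Saline 1, at 7.63, was the highest of all arrays and the difference was 0.05 ± 0.086. It stood for the gene, so that Kcnj11 counted among the overlapping members.

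Kcnj8, the pore Kir6.1 found in mural cells of vessels, had the widest spread of all members and was picked out for it. It was at 4.97, 6.19 and 5.26 in saline and 6.28, 5.09 and 5.20 in LSD arrays. Saline 2 and LSD 1 stood about 1 unit above the other arrays. The difference was 0.05 ± 0.37 log2 units (SE), and the pooled SD within groups of 0.647 compares with 0.373 for the next member, Kcne1. Abcc9, the subunit that pairs with Kir6.1 in these cells, lay between 7.11 and 7.41 on all arrays, with Saline 2 at 7.20 and LSD 1 at 7.23. The summed signal of the 9 measured endothelial and mural markers, Abcc9 among them, was 9.50 to 9.65 log2 units in saline and 9.48 to 9.58 in LSD arrays. Slc2a1 (mean of 8.37 in saline) weighs most in it, and the dimmer Pdgfrb, Acta2 and Tagln weigh little. The sum therefore cannot show the mural content of an array by itself. It was 9.54 on Saline 2 and 9.57 on LSD 1, which were not the highest arrays. The second probe set of Kcnmb1 was highest on the same arrays, at 6.03 on Saline 2 and 5.97 on LSD 1, with the rest from 5.14 to 5.76. Its brightest probe set did not share this, with Saline 2 as the lowest of all arrays at 7.08 and LSD 1 as the lowest LSD array at 7.28.

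Kcnj10 encodes Kir4.1, through which astrocytes take up the potassium that neurons release, and it can pair with the Kir5.1 subunit of Kcnj16. Kcnj10 was at 4.72, 4.40 and 4.44 in saline and 4.35, 4.46 and 4.63 in LSD arrays, a difference of -0.04 ± 0.12 log2 units (SE). Its second probe set differed by -0.18 and Kcnj16 by 0.09, without passing. The astrocyte markers were summed beside them, because in pooled tissue fewer cells of a type and less RNA per cell cannot be told apart. Their summed signal was 13.24 to 13.31 in saline and 13.13 to 13.16 in LSD arrays, which did not overlap. Bright genes weigh most in such a sum, among them Cst3 (-0.27), while the dimmer Aqp4 differed by 0.41. Of the 8 markers 4 had lower and 4 higher means. An unadjusted limma p below 0.05 was found for 4, against 3.63% of all genes, and 0 passed the adjusted threshold. Kcnj13, the Kir7.1 channel of choroid plexus epithelium, lay between 2.71 and 2.89 on all arrays, near the bottom of the scale. Choroid plexus markers were summed at 10.89 to 11.01 in saline and 10.52 to 10.62 in LSD arrays, which did not overlap either. By far the brightest of them was Ttr, with means of 10.42 in saline and 9.93 in LSD arrays. Of the 6 markers 5 had lower means and 1 a higher mean. All LSD arrays were below all saline arrays in 2 of the 6, against 3.34% of all genes. An unadjusted limma p below 0.05 was found for 3, against 3.63% of all genes, and 0 passed the adjusted threshold. The part of these markers in the channel values was not tested.

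K2P channels hold the resting potential with currents that need no gating by voltage. Of the 3 measured, Kcnk1, the channel TWIK1 of neurons and astrocytes, differed by -0.18 ± 0.11 log2 units (SE, adjusted p = 0.971). Its saline arrays were at 7.50, 7.09 and 7.21 and its LSD arrays at 7.08, 7.11 and 7.07. Saline 1 stood above the rest, and the LSD arrays lay close together. Without Saline 1 the difference was -0.06, and without Saline 2 it was -0.26. Kcnk3, the acid-sensitive channel TASK1, differed by 0.07 ± 0.088 in its brightest and by -0.10 in its other probe set, and Kcnk5 by -0.05.

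**Figure D3:**
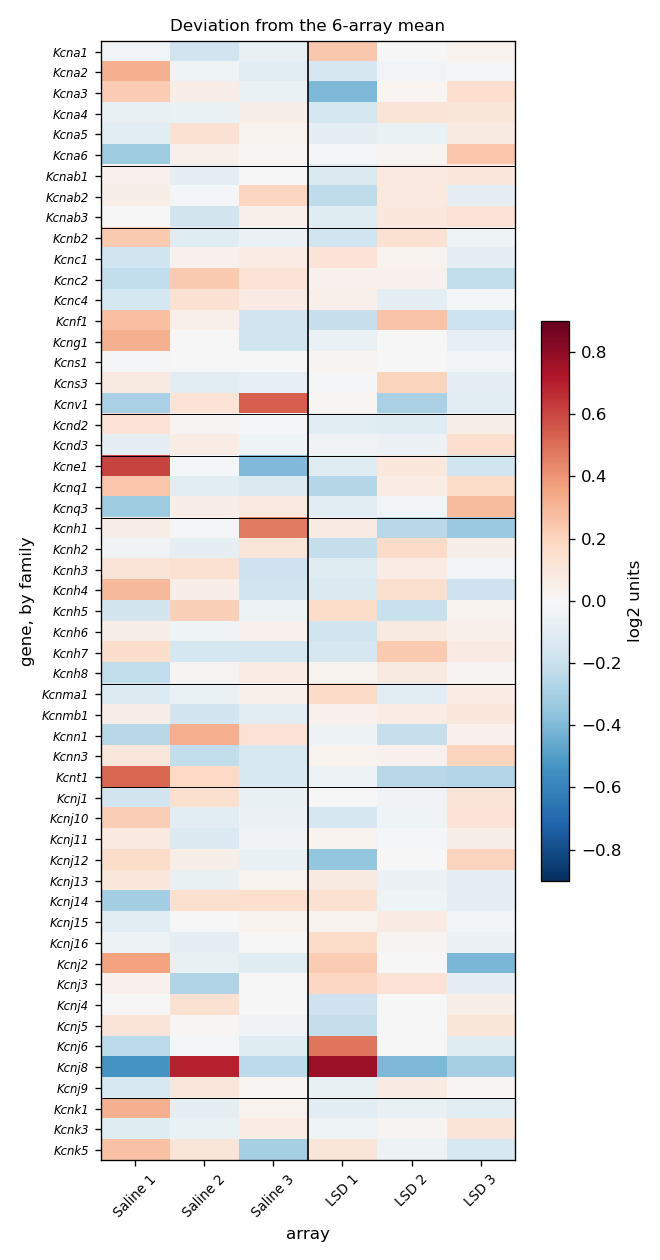
Deviation of each of the 54 genes (rows, grouped by family) from its mean over the 6 arrays (columns), in log2 units, with red above and blue below the mean. The vertical line parts saline from LSD arrays, and the strongest colours belong to Kcnj8 on Saline 2 and LSD 1 and to Kcne1 on Saline 1.

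Saline 1 touched several of the values given above, so the comparison was repeated without it. An unadjusted limma p below 0.05 was then found for 4 members, against 9.31% of all genes. They were Kcnv1 (-0.46), Kcnn3 (0.27), Kcnn1 (-0.30) and Kcnmb1 (0.20 log2 units), and Kcnt1 was no longer among them. The differences were smaller when another saline array was left out. Kcnv1 was at -0.041 without Saline 3, and without Saline 2 the values were -0.013 for Kcnn1, 0.11 for Kcnn3 and 0.086 for Kcnmb1. None passed the adjusted threshold, with a lowest adjusted p of 0.512. The groups did not overlap in 10 members, the 4 among them, once that array was left out, against 28.8% of all genes.

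Further probe sets gave a second reading of 22 member genes. Of 28 further probe sets, 10 had the sign of the brightest one and 18 the opposite sign. In 8 of the 22 genes all probe sets had the same sign. The median gap between the highest and lowest change of a gene was 0.139 log2 units in these 22 genes. The median size of the difference over all 54 genes was 0.089, which is a single estimate per gene and not a gap between several. Over all probe sets 0 of the 82 passed an adjusted p of 0.05 in limma, against 0.0686% of all 8740. An unadjusted p below 0.05 was found for 2, those of Kcnt1 and the dim one of Kcna4, against 3.92%. The groups did not overlap in 4 of the 82, against 10.4% of all probe sets, and these were the probe sets of Kcna1, Kcna4, Kcnh2 and Kcnj11 described above. Names of 29 of the 82 end in _s_at, which marks probe sets that can match several transcripts and so cannot be assigned to 1 gene with certainty.

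**Figure D4:**
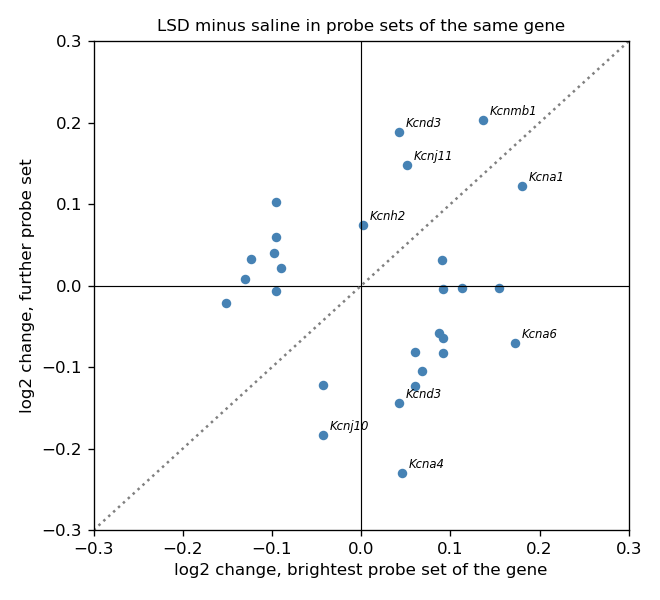
Log2 change of each further probe set (vertical axis) against that of the brightest probe set of the same gene (horizontal axis), with 1 point for each of 28 further probe sets of 22 genes and a dotted line where both are equal. Of the points 18 lie in the quadrants of opposite sign.

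Partners of the channels were measured on the same arrays. Of 12 scaffold and auxiliary proteins, 6 had higher and 6 lower means and 0 passed in limma. Dlg1, the scaffold SAP97 that binds the tails of Kv1 and Kir2 channels, was at 4.82, 4.94 and 4.94 in saline and 5.38, 5.14 and 5.37 in LSD arrays. These groups did not overlap, and the difference was 0.39 ± 0.096 log2 units (SE), with an unadjusted limma p of 0.00317 and an adjusted p of 0.951. LSD arrays lay above all saline arrays in 3 of the 12, against 6.97% of all genes. Abcc8, the sulfonylurea receptor that assembles with Kir6.2 in neurons, differed by 0.22 ± 0.10. Snap25 and Stx1a, vesicle fusion proteins that also bind Kv channels, differed by 0.13 and -0.18.

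Of 18 G proteins, regulators and receptors that act on Kir3 and Kv7 channels, 4 had higher and 14 lower means, and 0 passed. Gnai1, an inhibitory G protein subunit, differed by 0.22 ± 0.091 log2 units (SE), and Gnao1 by -0.19 ± 0.094. Gnb2, a beta subunit of the kind that opens Kir3 channels, and Htr2a, the 5-HT2A receptor gene, each differed by -0.19. The adjusted p in limma was 0.971 for both. All LSD arrays were below all saline arrays in 4 of the 18, Gnb2, Htr2a, Gnai2 and Gnb1, against 3.34% of all genes. Htr2a, a dim probe set, separated narrowly, with LSD 3 at 4.37 and Saline 3 at 4.38. Sodium-potassium pump and cotransporter genes had 1 higher and 8 lower of 9 means, and 0 passed. Atp1b2, the pump beta subunit of glia, differed by -0.22 ± 0.12 and Atp1b3 by -0.17 ± 0.10, with Fxyd2 at 0.16 and Slc12a2 at -0.07.

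The labelled tissue was checked against markers. Of 5 measured excitatory neuron markers the summed signal was 11.14 to 11.16 log2 units in saline and 11.16 to 11.27 in LSD arrays. It is almost wholly that of Nrgn, with means of 10.99 in saline and 11.05 in LSD arrays. Of the 5 means 3 were higher, Nptx1 by most (0.27), and 2 lower, Camk2a (-0.19) and Slc17a7 (-0.16). The 10 genes listed as inhibitory neuron markers were summed at 11.65 to 11.73 in saline and 11.67 to 11.74 in LSD arrays. Cck, the brightest, weighs most in that sum and differed by 0.04. Of the 10 means 4 were higher, among them Pvalb (0.19), and 6 lower, among them Gad1 (-0.20) and Gad2 (-0.13). Oligodendrocyte markers were summed at 11.91 to 12.19 and 12.06 to 12.11, and microglia markers at 8.75 to 8.80 and 8.80 to 8.86. Striatal markers, which dissection can include, were at 10.38 to 10.44 in saline and 10.26 to 10.40 in LSD arrays. Pdyn, the brightest of them, weighs most in this sum and differed by 0.07. Of the 10 striatal means 2 were higher and 8 lower. All LSD arrays were below all saline arrays in 5 of the 10, against 3.34% of all genes. An unadjusted limma p below 0.05 was found for 3 of the 10, against 3.63% of all genes. These were Penk (-0.46), Arpp21 (-0.36) and Tac1 (-0.32), and 0 passed the adjusted threshold. Their part in the channel values was not tested.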

How the data were processed

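The authors ran rma (affy package in R, version not stated in the sources) on scans of Affymetrix rat expression arrays. The deposited values are log2 signals after background correction, quantile normalization over arrays and summary of each probe set. That step removes any shift common to most transcripts, and the number of arrays limits the precision. Array medians lay between 5.43 and 5.45. Tests covered 8740 probe sets, without the 59 controls.

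Symbols came from the platform annotation of the arrays, and all 54 member genes matched a RefSeq gene of the GRCr8 assembly by gene ID, used for names only. Each gene was read from its probe set of highest average signal on the 6 arrays, after the rule in the study's methods. The test was limma's lmFit with eBayes (limma 3.58.1, R 4.3.3), two-sided and without covariates, over all 4736 genes, or all probe sets, with Benjamini-Hochberg adjustment. The script was tested on simulated data. Summed marker signals are log2 of the sum of linear values.

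The members, families and lists were chosen with earlier results of these data known. The rule named members past either p threshold or without overlap, the 2 of lowest p per family, main cortical and glial channels, and up to 4 partners of lowest p per list. Kcna4, Kcnh2, Kcnj8, Kcnj11, Kcnmb1 and Kcnn1 were named after their values were seen, and other members appear as values within their family. Alternatives were other scalings, a filter on dim probe sets, other variance priors, weighted arrays, a block for replicate number, other probe sets, a rank test and leaving out each array. Leaving out arrays at the level of probe sets was chosen after seeing the data.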

Additional observations from a re-analysis of the deposited data

How the results depend on the processing

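Under the 16 alternatives 0 members passed the adjusted threshold, and 0 probe sets of members did so whichever array was left out. An unadjusted p below 0.05 was found for 6 members with array weights (14.8% of all genes), 2 with an intensity trend and robust prior (4.46%), 0 in the exact rank sum test and 0 to 4 when 1 array was left out (2.81% to 9.31%). Non-overlapping members numbered 3 with all probe sets of a gene averaged (10.1% of all genes), 2 with the most variable probe set (9.97%), and 4 (without Saline 2, 16.7%) to 10 (without Saline 1, 28.8%) with fewer arrays, which separate more easily. With cyclic loess the single non-overlapping member was Kcnk1 in place of Kcna1. The median log2 change of the members was 0.0263 with array weights, -0.0235 with probe sets averaged and -0.0377 with the most variable probe set, against 0.0050, 0.0049 and 0.0063 over all genes. When 1 array was left out it ran from -0.0222 (without Saline 3) to 0.0237 (without LSD 1), both beside 0.0146 over all genes. With the replicate block, 1 member had an unadjusted p below 0.05 (2.79% of all genes) and the median was -0.0091. Same-numbered arrays correlated at -0.0175, -0.232 and 0.175 in their deviations from the group means, and differently numbered ones at -0.150 to 0.205. With 3 arrays per group these values cannot decide whether replicate numbers pair the arrays.

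Of 29 named members 13 kept their sign under all alternatives run for them, and none passed. Array weights turned Kcna2 (0.0061), Kcnc1 (-0.0241), Kcne1 (0.182), Kcng1 (0.0477), Kcnj10 (0.0371), Kcnma1 (-0.0247) and Kcnj8 (-0.318). The most variable probe set turned Kcnd2 (0.0403), Kcnk3 (-0.104), Kcnma1 (-0.083), Kcnq3 (-0.0028) and Kcna4 (-0.23), the mean of probe sets Kcnk3 (-0.0182), Kcnma1 (-0.0149) and Kcna4 (-0.0919), and cyclic loess Kcnj9 (-0.0002) and Kcnh2 (-0.0094). Leaving out 1 array gave ranges that crossed 0 for Kcna2 (-0.203 to 0.0057), Kcnc1 (-0.032 to 0.0998), Kcnd3 (-0.0239 to 0.0867), Kcne1 (-0.360 to 0.142), Kcng1 (-0.205 to 0.0433), Kcnh8 (-0.0012 to 0.141), Kcnj10 (-0.116 to 0.0584), Kcnj9 (-0.0503 to 0.0703), Kcnq3 (-0.0179 to 0.188), Kcnj8 (-0.330 to 0.405), Kcnj11 (-0.0005 to 0.108) and Kcnh2 (-0.0827 to 0.112). Leaving out Saline 1 turned 10 of these 12, Kcnd3 and Kcnj11 being the others. Of the 17 other named members, each moved by over 1.5 times without at least 1 array. Those whose values without an array the report does not give ranged over 0.055 to 0.238 for Kcna6, -0.232 to -0.0739 for Kcnab2, 0.016 to 0.151 for Kcnab3, -0.149 to -0.0559 for Kcnd2, 0.0582 to 0.237 for Kcnj3, 0.0273 to 0.120 for Kcnk3, 0.0293 to 0.163 for Kcnma1 and 0.0003 to 0.136 for Kcna4. The causes were not tested.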
